A study of Homo sapiens with 24 samples.

Results

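The response of HCC1937 breast cancer cells to combined inhibition of EZH2 and AKT was measured by sequencing of polyadenylated RNA. It was taken from 6 libraries of a series of 24, namely 3 from cells given both inhibitors and 3 from cells given the solvent DMSO, each set lettered A to C. All 17692 genes that passed a filter on low counts were described, of 58735 gene entries in the files. HCC1937 is an established line from a breast carcinoma of the triple-negative class (low in estrogen and progesterone receptor and without HER2 amplification), known for a mutant BRCA1 gene. The combination was 5 uM tazemetostat, which inhibits the histone methyltransferase EZH2 (EZH2i), with 5 uM ipatasertib, which inhibits the AKT kinases (AKTi). Neither inhibitor was given alone to this line in the libraries used here, so their separate contributions cannot be told apart. The labels give a treatment schedule only for another line, so the time of exposure is not clear. The lines HCC38 and HCC1395, also of the triple-negative class and also with 3 DMSO and 3 EZH2i+AKTi libraries each at the same doses, served for comparison. The joint fit used to compare the lines also held 3 HCC1395 libraries given 5 uM tazemetostat alone and 3 given 5 uM ipatasertib alone. The labels do not state whether libraries of a group came from separate cultures, so every p-value reflects the spread between libraries alone, which may be technical.

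EZH2 is the enzyme of Polycomb repressive complex 2 (PRC2), which places the repressive methyl mark on lysine 27 of histone H3 and keeps genes of other lineages and of embryonic development silent. AKT is the central kinase below phosphatidylinositol 3-kinase (PI3K). Active AKT holds the FOXO transcription factors out of the nucleus and favours glycolysis, growth and cell cycle entry, and it restrains receptor tyrosine kinases through feedback.

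Library totals were 40986840 to 47370609 counts in DMSO and 35506411 to 46424208 under EZH2i+AKTi. Values below are CPM (counts per unit of library size), adjusted between libraries by the trimmed mean of M-values. The first principal component held 79.4% of the variance and parted the groups. The second held 7.49%, with DMSO A apart from DMSO B and C, and EZH2i+AKTi A apart from EZH2i+AKTi B and C. Mitochondrial transcripts took 4.807 to 6.372% of counts in DMSO and 6.724 to 8.539% under EZH2i+AKTi, and ribosomal protein genes 4.399 to 4.86% and 4.997 to 5.561%. These shares moved with the treatment, and their part in the results below was not tested. Marker levels in this paragraph are CPM without adjustment by the trimmed mean. The epithelial markers EPCAM, CDH1, KRT8, KRT18 and KRT17 were all abundant. In DMSO, KRT19 was at 48.7 to 59.2 CPM, and KRT5 and KRT14 were low (6.42 to 6.51 and 9.28 to 11.4 CPM). Of 3 receptor genes PGR was at 0. ESR1 was at 20.7 to 21.4 CPM in DMSO and 12.5 to 14.1 CPM under the combination. In DMSO it was at most 2.24 CPM in HCC38 and 0.208 CPM in HCC1395. ERBB2 was at 181 to 206 CPM in DMSO and 229 to 242 CPM under the combination. The B cell marker MS4A1 was at 0 and the T cell marker CD3E had at most 1 count. Of 8 fibroblast markers DCN and LUM were at 0 in DMSO and 4 passed the filter, with a summed level of 19.7 to 21 CPM in DMSO and 14 to 15.6 CPM under the combination. COL1A1 and FAP fell, PDGFRB rose (not without EZH2i+AKTi B, adjusted p = 0.0699), and LUM had 108 counts over the 3 treated libraries (at least 39.4-fold higher, DMSO set to 3 counts over the group). The 6 endothelial markers summed to 36.9 to 39.8 CPM in DMSO and 69.6 to 70.7 CPM under the combination, nearly all from PECAM1 and CDH5, which were at 0 to 0.0284 CPM in HCC38. The immune markers summed to 7 to 8.51 and 9.03 to 10 CPM, and the neural ones to 25.9 to 27.9 and 32.2 to 35.6 CPM, nearly all from MBP. In bulk RNA, fewer cells of a type and less RNA per cell cannot be told apart.

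The first question was which genes differed between EZH2i+AKTi and DMSO in HCC1937. Genes of DNA replication, glycolysis and the low-oxygen response fell together, targets of FOXO and YAP-TEAD rose, and genes that had been almost silent became measurable. KRT5 and KRT14 fell and GATA3 rose, but basal and luminal markers as lists were split. Of 27 basal and myoepithelial markers 10 rose and 12 fell (median log2 change 0.03), and of 22 luminal markers 8 rose and 6 fell (median -0.01). In all, 10491 of 17692 genes (59.3%) were called by edgeR's quasi-likelihood test at a Benjamini-Hochberg adjusted p under 0.05, 5399 higher (30.5%) and 5092 lower (28.8%). With so large a share called, each group of genes below has to be read against these percentages. Counted by libraries that do not overlap between groups, 5789 genes were higher (32.7%) and 5525 lower (31.2%). At 2-fold or more, 2046 genes were higher (11.6%) and 556 lower (3.14%), so the large changes were mostly rises. The median log2 change of all genes was 0.03. It was 0.77 among genes called higher and -0.47 among genes called lower.

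**Figure D1:**
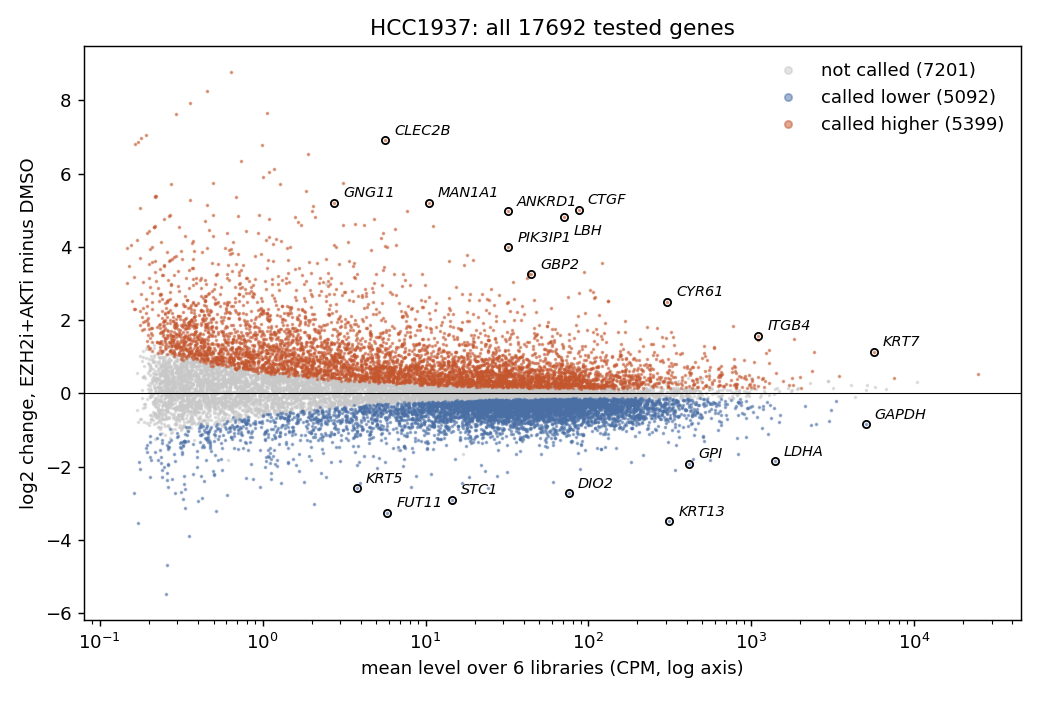
Log2 change (EZH2i+AKTi minus DMSO) of each tested gene against its mean level over the 6 HCC1937 libraries in CPM on a log axis, with genes called higher in orange, called lower in blue and the rest grey. CTGF, ANKRD1 and LBH rose by more than 4 log2 units, and KRT13 and LDHA fell from high levels.

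The plot of all genes shows rises reaching further than falls at low and middle levels. Of 2812 genes with a mean of 0.5 to 2 CPM, 1064 were called higher (37.8%) and 258 lower (9.17%). Of 3443 genes with a mean of 50 to 200 CPM, 784 were higher (22.8%) and 1676 lower (48.7%). Rises were thus more frequent than falls among genes of low mean level and less frequent among abundant ones. The same held by gene type, since 412 of 1038 long intergenic noncoding RNAs rose and 81 fell, against 4185 and 4658 of 13777 protein-coding genes. Some genes of low level passed the filter only through the group in which they were high, and so had to differ.

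**Figure D2:**
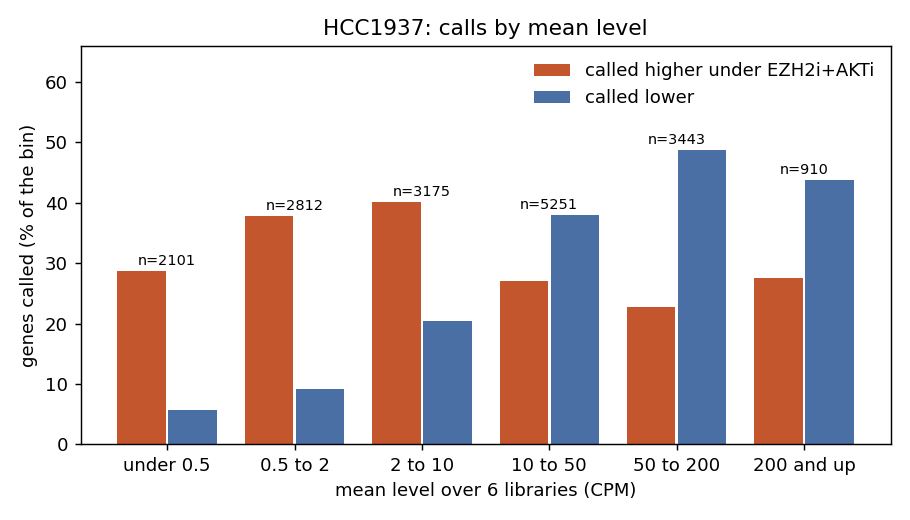
Share of genes called higher (orange) and lower (blue) under EZH2i+AKTi, in percent of the genes in each bin of mean level over the 6 libraries, with the number of genes above each pair of bars. The orange bar is the taller one in the bins below 10 CPM and the blue bar in the bins from 10 CPM up.

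Among the direct targets and their partners, the core of PRC2 fell. EZH2 stood at 89, 95.9 and 102 CPM in the DMSO libraries A, B and C and at 56.3, 53 and 49.8 CPM under EZH2i+AKTi (log2 change -0.85 ± 0.07, adjusted p = 5.3e-08). The groups did not overlap. The error of a log2 change is its standard error, and each group has 3 libraries. SUZ12 and EED, the other core subunits, fell as well (-0.75 ± 0.06 and -0.67 ± 0.07). EZH1, the second methyltransferase that can serve PRC2, rose from 10.6, 9.79 and 9.48 CPM to 18.8, 19.2 and 18.8 CPM (0.93 ± 0.08). BMI1, a subunit of Polycomb repressive complex 1, rose from 47.2 ± 4.42 CPM (SD) to 103 ± 7.33 CPM (1.13 ± 0.08). Of 32 tested Polycomb subunits 10 rose and 10 fell, with a median of -0.04. These counts are close to the shares of all genes (30.5% higher and 28.8% lower). Of the AKT genes, AKT1 fell slightly (-0.30 ± 0.06), and AKT2 averaged 115 ± 11.3 CPM in DMSO, against 113 ± 8.66 CPM in treated cells (adjusted p = 0.766).

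Targets of FOXO and feedback genes of PI3K rose as a group. Of 48 tested members 36 rose and 7 fell, a share of rises well above the 30.5% of all genes, and the median log2 change was 0.94 against 0.03 for all genes. PIK3IP1, which encodes a membrane inhibitor of PI3K, stood at 3.93, 4.05 and 3.53 CPM in DMSO and at 53, 63.3 and 65.4 CPM under EZH2i+AKTi. Every treated library was far above every DMSO library (3.98 ± 0.10, adjusted p = 3.6e-13). KLHL24, an adaptor of a ubiquitin ligase, rose from 19.7, 23.4 and 18.9 CPM to 133, 126 and 128 CPM (2.64 ± 0.08). GABARAPL1, which encodes an autophagosome protein, rose from 39.1 ± 2.66 to 223 ± 17.7 CPM (2.51 ± 0.07), and TXNIP, which encodes an inhibitor of thioredoxin and of glucose uptake, from 64.5 ± 2.89 to 150 ± 7.22 CPM (1.21 ± 0.06). IRS2, the adaptor that couples insulin receptors to PI3K, rose from 32.1, 30.7 and 32.4 CPM to 92.9, 82.4 and 78.2 CPM (1.41 ± 0.07). The FOXO genes themselves had small values. FOXO3 was at 108 ± 4.95 and 101 ± 5.56 CPM (adjusted p = 0.187), and FOXO1 was at 13.6 ± 1.07 and 16.2 ± 1.86 CPM (0.25 ± 0.10, adjusted p = 0.0362). The FOXO1 call was lost without DMSO A or C or EZH2i+AKTi A or B, among other settings, with adjusted p = 0.233 without EZH2i+AKTi A.

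The core FOXO motif GTAAACA, searched on both strands in the 300 bases from 250 before to 50 after the RefSeq start of each gene (assembly GRCh38.p14), was in 2.22% of the 11885 tested genes with a promoter sequence. It was in 4.3% of the genes higher at 2-fold or more and in 2.11% of those lower at 2-fold or more. In the FOXO and feedback list 6 of 41 promoters held it (14.6%). A match describes letters only and is not a binding site. The motif also lay before the start of named genes that fell, BCL2L11, ELOVL6 and HSP90AA1. Windows from 3 promoters are shown because their genes rose more than 2-fold and the whole window lies before the start, which leaves out WNT5B, whose motif is close to it. Capitals mark the motif or its reverse complement, each window running from 30 bases before to 30 after it. TXNIP lies at chr1:145996667-145996733 on the minus strand, the lysosomal protease gene CTSF at chr11:66568609-66568675 on the minus strand and the stress cytokine gene GDF15 at chr19:18386032-18386098 on the plus strand.
TXNIP: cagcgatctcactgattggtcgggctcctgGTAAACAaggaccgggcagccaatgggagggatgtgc
CTSF: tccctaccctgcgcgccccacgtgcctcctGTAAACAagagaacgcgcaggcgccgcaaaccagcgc
GDF15: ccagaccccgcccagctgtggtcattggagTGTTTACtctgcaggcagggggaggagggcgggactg

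Transcripts of most receptor tyrosine kinases and of most genes of ERK output rose too. Of 28 tested receptor tyrosine kinases 16 rose and 6 fell (median 0.75). IGF1R, the receptor of insulin-like growth factor, rose from 23.4, 23.4 and 25.7 CPM to 89.5, 86.9 and 83.5 CPM (1.84 ± 0.07). AXL rose from 219 ± 17 to 470 ± 6.4 CPM (1.10 ± 0.06), INSR, the insulin receptor, from 29.7 ± 1.02 to 62.9 ± 1.82 CPM (1.08 ± 0.06), and ERBB3 from 74.2 ± 2.15 to 117 ± 3.97 CPM (0.66 ± 0.06). MST1R, the receptor of macrophage stimulating protein, fell (-0.79 ± 0.06). Of 35 genes of ERK output 24 rose and 4 fell (median 0.70). DUSP6, the phosphatase of ERK induced by ERK itself, stood at 5.2, 6.57 and 6.62 CPM in DMSO and at 44.4, 42.9 and 44.8 CPM under EZH2i+AKTi, with no overlap (2.84 ± 0.09, adjusted p = 3e-12). ETV1, a transcription factor of the ETS family (1.83 ± 0.07), DUSP5 (1.62 ± 0.07) and HBEGF, a ligand of the EGF receptor (1.60 ± 0.08), rose as well.

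**Figure D3:**
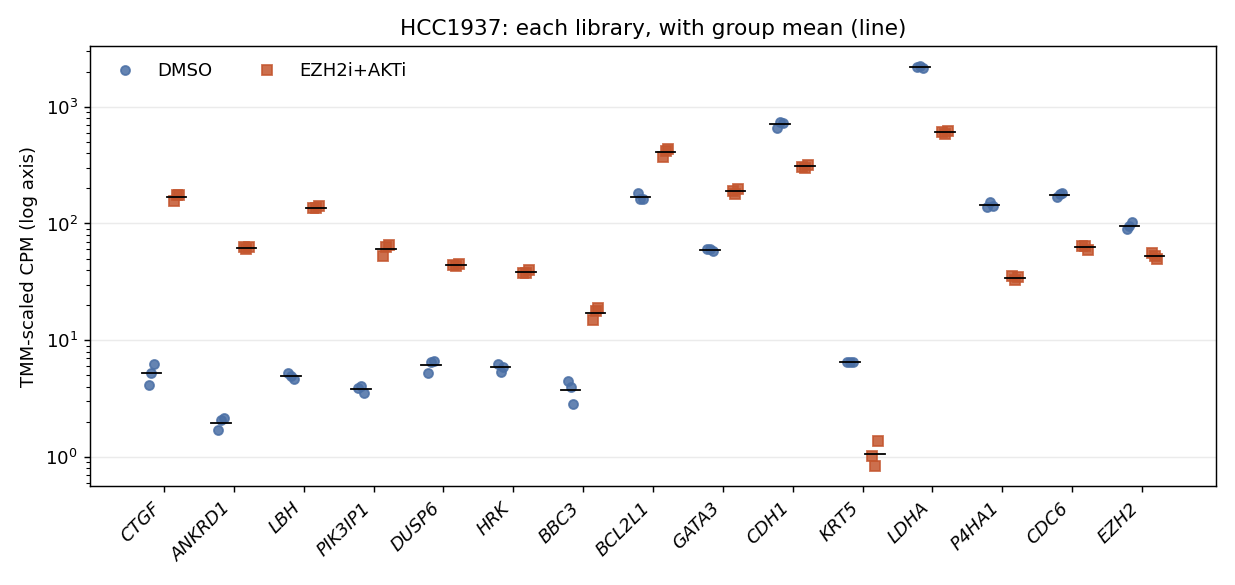
TMM-scaled CPM on a log axis of 15 genes in each of the 6 HCC1937 libraries, DMSO as blue circles and EZH2i+AKTi as orange squares, with a line at each group mean. In each of these genes the 2 groups do not overlap, with CTGF, ANKRD1 and LBH near or below 6 CPM in DMSO and above 60 CPM under EZH2i+AKTi.

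Genes of DNA replication fell almost without exception. Of 56 tested genes of the G1/S transition and replication 55 fell and 0 rose, where 28.8% of all genes fell, with a median log2 change of -0.85. RPA3 was the member not called. CDC6, which loads the replicative helicase, stood at 170, 180 and 182 CPM in DMSO and at 63.6, 63.9 and 59.7 CPM under EZH2i+AKTi with no overlap (-1.51 ± 0.06, adjusted p = 2.13e-11). RRM2, a subunit of ribonucleotide reductase, fell from 180, 188 and 190 CPM to 69, 65.5 and 67.9 CPM (-1.46 ± 0.06). MCM10, an initiation factor, fell from 56.6 ± 3.46 to 19.2 ± 0.933 CPM (-1.56 ± 0.07), DTL, which directs destruction of the licensing factor CDT1, from 111 ± 5.77 to 44 ± 1.32 CPM (-1.34 ± 0.06), and the helicase subunit gene MCM6 from 198 ± 3.9 to 111 ± 1.17 CPM (-0.84 ± 0.05). Mitotic genes fell less far: of 54 tested G2/M genes 44 fell and 0 rose, with a median of -0.38. MKI67, which encodes the Ki-67 antigen of cycling cells, was at 369, 431 and 421 CPM in DMSO and at 252, 236 and 237 CPM under EZH2i+AKTi (-0.75 ± 0.06). ANLN, needed for the cleavage furrow (-0.99), and PLK4, the kinase of centriole duplication (-0.98), fell too. In DMSO A both MKI67 and ANLN were lower than in DMSO B and C, and still above every treated library.

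Genes of homologous recombination and the Fanconi pathway, which repair breaks and crosslinks at replication forks, gave 28 lower and 2 higher of 33 (median -0.73). XRCC2 fell from 44.6, 44.9 and 47.9 CPM to 18.3, 17.6 and 16.1 CPM (-1.40 ± 0.07). The exonuclease gene EXO1 (-1.42) and RAD54L, which encodes a partner of the recombinase (-1.36), also fell. BRCA1, mutant in this line, fell from 76.3 ± 4.45 to 35.5 ± 1.49 CPM (-1.11 ± 0.07), and it overlaps the gene NBR2, whose reads may be shared. Among inhibitors of cyclin-dependent kinases 5 of 8 rose and 2 fell. CDKN2B, which encodes p15, rose from 72.3, 66.3 and 64.8 CPM to 243, 281 and 274 CPM (1.97 ± 0.07), and CDKN1C, which encodes p57, from 4.33 ± 0.395 to 14.2 ± 0.581 CPM (1.72 ± 0.10). CDKN2A, which encodes p16 and p14ARF, rose from 326 ± 42.8 to 534 ± 35.5 CPM (0.71 ± 0.09). CDKN1A and CDKN1B, which encode p21 and p27, rose by 0.35 ± 0.09 and 0.37 ± 0.07. CCND1, the cyclin D1 gene, went the other way from the replication genes, from 601 ± 26.5 to 995 ± 24.1 CPM (0.73 ± 0.06).

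Histone genes whose transcripts accompany replication did not fall with the replication genes. Of 35 tested replication-dependent histone genes 18 rose and 5 fell (median 0.39). HIST2H2BE rose from 41.6, 41.2 and 38.4 CPM to 106, 90.8 and 98.7 CPM (1.28 ± 0.07) and HIST1H2AC from 173 ± 12.8 to 284 ± 8.38 CPM (0.72 ± 0.06). Most histone transcripts lack a poly(A) tail and the libraries were made from polyadenylated RNA, so these values describe the polyadenylated part. Histone genes are also near-identical copies, so the split of reads among them is uncertain.

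The E2F motif, searched as TTTCCCGC or TTTGGCGC on both strands, was in 47.8% of the 46 promoters matched in the replication list, in 3.63% of all 11885 promoters, in 8.16% of genes lower at 2-fold or more and in 1.86% of those higher at 2-fold or more. The element TTTGAA, called the cell cycle homology region, was in 30 of 46 G2/M promoters (65.2%) and in 9.75% of all. The MCM6 window is shown because it holds the E2F motif at 2 places upstream of the start, in capitals, at chr2:135876496-135876625 on the minus strand.
MCM6: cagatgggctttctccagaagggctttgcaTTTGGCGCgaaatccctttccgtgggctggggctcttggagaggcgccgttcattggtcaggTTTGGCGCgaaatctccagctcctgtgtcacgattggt

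Most glycolysis genes fell. Of 23 tested genes 21 fell and 1, the lactate exporter gene SLC16A3, rose, with a median of -0.85. LDHA, which turns pyruvate into lactate, stood at 2176, 2232 and 2152 CPM in DMSO and at 605, 587 and 621 CPM under EZH2i+AKTi, with libraries of a group close to each other and no overlap (-1.86 ± 0.05, adjusted p = 1.57e-12). GPI, the enzyme of the second step, fell from 664, 657 and 644 CPM to 169, 168 and 180 CPM (-1.92 ± 0.06). PGK1 fell from 1251 ± 59.5 to 399 ± 13.4 CPM (-1.65 ± 0.06), TPI1 from 1721 ± 159 to 791 ± 70.8 CPM (-1.12 ± 0.08) and GAPDH, often taken as a reference gene, from 6474 ± 190 to 3601 ± 163 CPM (-0.85 ± 0.06). PDK1, the mitochondrial kinase that shuts pyruvate dehydrogenase and not the signalling kinase of the same abbreviation, fell from 30.8 ± 1.75 to 6.3 ± 0.285 CPM (-2.29 ± 0.08). GAPDH, ENO1, PKM, LDHA, TPI1 and PGK1 were among the 8 protein-coding genes with the largest falls in CPM, beside HSP90AA1 and HSP90AB1, which encode the cytosolic chaperone HSP90.

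Genes known as induced by hypoxia fell at the same time, with 15 of 25 lower and 6 higher (median -0.59). P4HA1, a collagen prolyl hydroxylase, stood at 138, 152 and 142 CPM in DMSO and at 35.6, 32.9 and 34.6 CPM under EZH2i+AKTi (-2.07 ± 0.06). PLOD2, a collagen lysyl hydroxylase, fell from 548 ± 31.1 to 129 ± 3.68 CPM (-2.08 ± 0.06), BNIP3, a gene of mitophagy, from 286 ± 9.89 to 77.8 ± 3.5 CPM (-1.88 ± 0.06), and ANGPTL4, an inhibitor of lipoprotein lipase, from 41.6 ± 1.91 to 6.96 ± 0.694 CPM (-2.58 ± 0.09). CA9, the carbonic anhydrase used as a hypoxia marker and named after its values were seen, had 66 counts over the 3 DMSO libraries and 1 over the treated ones. CA12, a relative of it (log2 change 3.37), and the MYC antagonist gene MXI1 (1.74) were among the 6 that rose. Also known to respond to hypoxia, and among the 12 largest falls, were FUT11, a fucosyltransferase gene, from 9.86, 11.1 and 10.6 CPM to 0.961, 1.29 and 1.04 CPM (-3.26 ± 0.14), and STC1, which encodes stanniocalcin, from 25.6 ± 2.02 to 3.39 ± 0.349 CPM (-2.91 ± 0.10).

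The core of the hypoxia response element, searched as ACGTGC on both strands, was in 6 of 19 matched promoters of the hypoxia list (31.6%), 5 of 22 of the glycolysis list (22.7%) and 8.66% of all. The LDHA promoter is shown because it holds the core at 2 places, in capitals, at chr11:18394347-18394524 on the plus strand.
LDHA: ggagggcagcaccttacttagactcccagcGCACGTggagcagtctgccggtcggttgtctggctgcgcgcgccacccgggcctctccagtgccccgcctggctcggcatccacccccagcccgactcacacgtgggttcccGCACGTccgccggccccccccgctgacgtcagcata

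Targets of YAP and TEAD, the transcription factors held back by the Hippo pathway, included some of the largest rises. Of 25 tested members 16 rose and 4 fell (median 0.53). CTGF, a matricellular protein gene, stood at 4.12, 5.23 and 6.24 CPM in DMSO and at 156, 176 and 175 CPM under EZH2i+AKTi, a rise of 32.4-fold (5.02 ± 0.12, adjusted p = 2.44e-11). ANKRD1, which encodes an ankyrin repeat protein, went from 1.71, 2.06 and 2.15 CPM to 62.8, 61 and 62.8 CPM (4.97 ± 0.09). CYR61, a close relative of CTGF, rose from 86.8, 86.7 and 102 CPM to 487, 552 and 517 CPM (2.50 ± 0.07). In each of these 3 genes the lowest treated library was several times the highest DMSO library. The other members moved less, such as CRIM1 from 136 ± 15.4 to 347 ± 7.58 CPM (1.36 ± 0.07), and YAP1, TEAD4 and WWTR1, which encode the factors themselves, were among the 4 that fell (-0.42, -0.27 and -0.27). The TEAD motif GGAATGT, on both strands, was in 4 of 18 matched promoters of the list (22.2%) and in 2.22% of all. The CTGF window is shown because CTGF rose furthest of the list, with the motif in capitals, at chr6:131951431-131951497 on the minus strand.
CTGF: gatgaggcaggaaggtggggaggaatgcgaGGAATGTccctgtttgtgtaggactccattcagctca

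Markers of mammary cell identity changed in both directions. The named GATA3 and KRT7 overlap antisense genes, and KRT7 also KRT86, so some reads may belong to those. GATA3, the transcription factor of luminal cells, stood at 60, 60.5 and 58.1 CPM in DMSO and at 190, 179 and 196 CPM under EZH2i+AKTi, with no overlap (1.66 ± 0.06, adjusted p = 8.03e-12). KRT7, a keratin of simple epithelia, rose from 3699, 3377 and 3522 CPM to 7493, 7762 and 8113 CPM (1.14 ± 0.06), and ALDH1A3, a marker of luminal progenitors, from 371 ± 14.7 to 691 ± 22.5 CPM (0.90 ± 0.06). KRT19 fell from 53.5 ± 5.16 to 22.3 ± 2.36 CPM (-1.26 ± 0.09), KRT18 was at 1710 ± 29.9 and 1830 ± 88 CPM (adjusted p = 0.146), and ELF3, a luminal ETS factor, at 265 ± 20.5 and 274 ± 9.58 CPM (adjusted p = 0.561). Over 22 tested luminal markers 8 rose and 6 fell (median -0.01), close to the shares of all genes. Several basal keratins fell, though KRT17 did not pass the test, at 106 ± 5.04 and 98.6 ± 7.52 CPM (-0.11, adjusted p = 0.173). KRT5 was at 6.51, 6.57 and 6.47 CPM in DMSO and at 1.02, 0.832 and 1.37 CPM under EZH2i+AKTi (-2.59 ± 0.17), KRT14 fell from 10.5 ± 1.01 to 4.64 ± 0.794 CPM (-1.17 ± 0.13) and KRT16 from 724 ± 68.4 to 295 ± 25.1 CPM (-1.30 ± 0.08). TP63, the master regulator of basal cells, and KRT6A, KRT6B and KRT15 also fell (-2.27, -2.13, -1.79 and -1.83). Other members of the basal and myoepithelial list rose, including NGFR (1.84 ± 0.11) and the contractile gene MYLK (1.39 ± 0.07), so that the list gave 10 higher and 12 lower of 27 (median 0.03).

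Genes of squamous differentiation gave 11 higher and 6 lower of 26 (median 0.27). KRT13, a keratin of stratified mucosa, had the largest fall among protein-coding genes that averaged 2 CPM or more without overlap, from 703, 574 and 454 CPM to 45.5, 52 and 56.7 CPM (-3.49 ± 0.20, adjusted p = 2.86e-05). The DMSO libraries differed among themselves, yet each was at least several times any treated one. KRT23 (2.21 ± 0.09), KRT4 (1.69 ± 0.10) and KRT80 (1.01 ± 0.06) rose. Of 36 tested genes of epithelial junctions 20 fell and 10 rose (median -0.28). CDH1, which encodes E-cadherin, fell from 660, 737 and 720 CPM to 305, 301 and 317 CPM (-1.20 ± 0.06), and the desmosomal cadherin gene DSC2 and the tight junction gene TJP3 fell as well (-1.11 and -1.21). CLDN1, a claudin gene, rose from 79.5 ± 4.25 to 254 ± 9.76 CPM (1.68 ± 0.06).

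Of 17 tested genes of hemidesmosomes and the basement membrane 8 rose and 4 fell (median 0.14), and the split ran between partners. ITGB4, the integrin subunit of hemidesmosomes, rose from 555, 547 and 553 CPM to 1622, 1677 and 1644 CPM (1.58 ± 0.05), whereas ITGA6, with which it pairs, fell from 304, 349 and 340 CPM to 161, 154 and 160 CPM (-1.06 ± 0.06). PLEC, the plectin gene, rose from 1850 ± 100 to 2840 ± 236 CPM (0.62 ± 0.07) and ITGA3 from 1145 ± 14 to 1697 ± 60.3 CPM (0.57 ± 0.05). Of 17 tested mesenchymal markers 7 rose and 6 fell (median 0.10). SNAI2, which encodes the repressor Slug, rose from 26 ± 3.85 to 71.3 ± 3.54 CPM (1.45 ± 0.09), while COL6A1, TNC and TGFBI, genes of the extracellular matrix, fell (-0.90, -0.69 and -0.60).

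**Figure D4:**
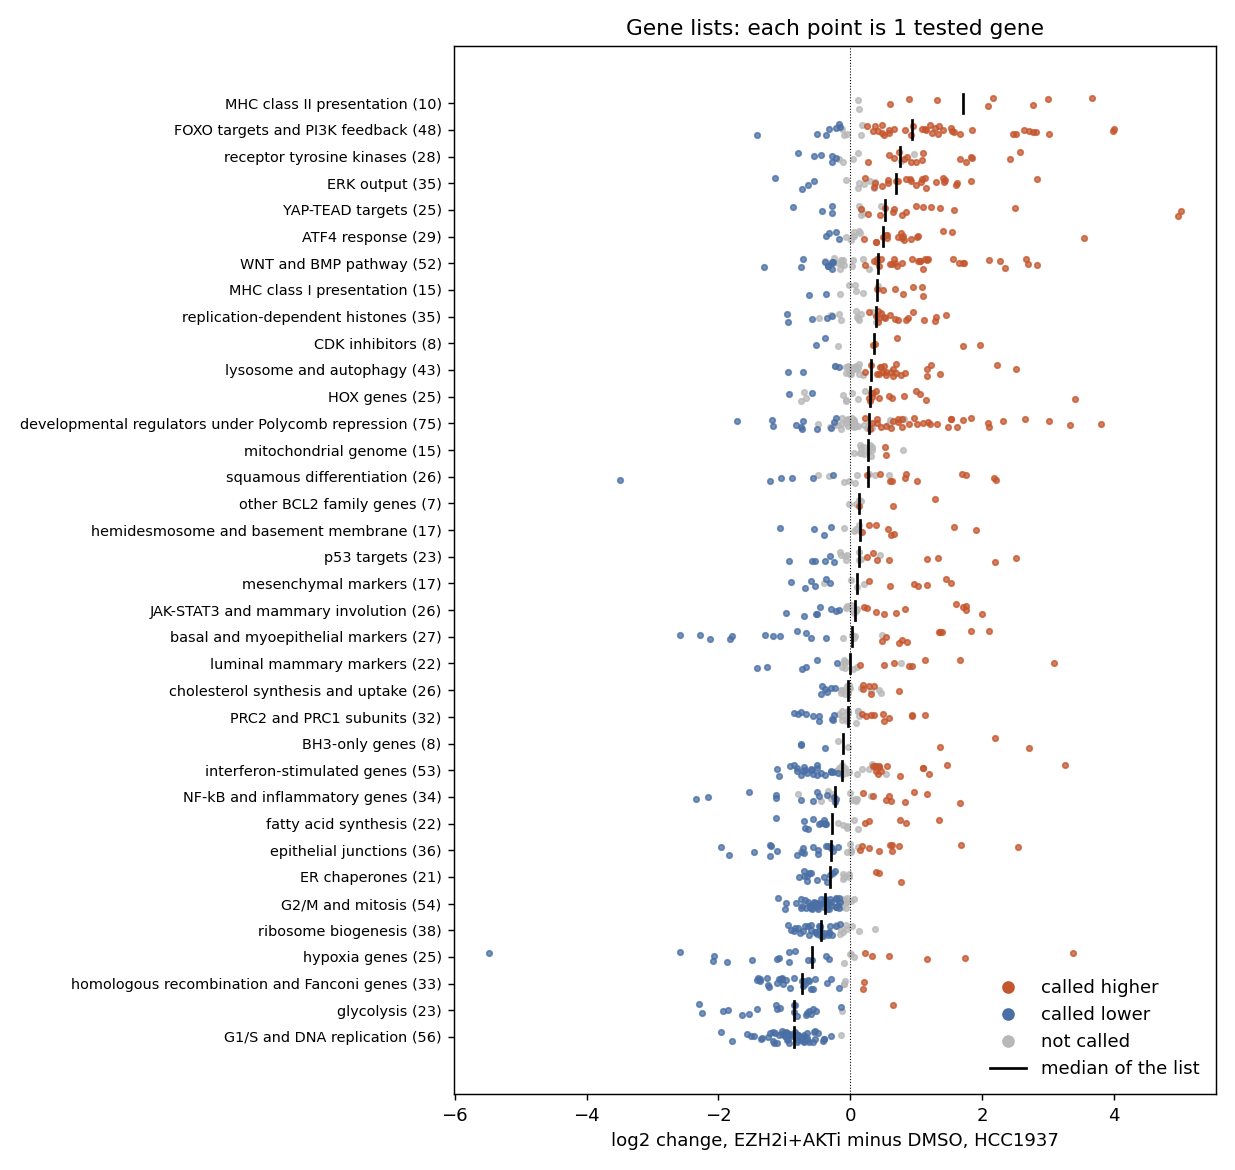
Log2 change (EZH2i+AKTi minus DMSO, HCC1937) of each tested gene of 36 lists, called higher in orange, called lower in blue and not called in grey, with a black line at each list's median and the number of tested genes in brackets. The replication list lies almost wholly below 0, with a median of -0.85, and the FOXO and feedback list mostly above it, with a median of 0.94.

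Developmental regulators that PRC2 is known to silence gave 33 higher and 11 lower of 75 tested genes, with a median of 0.29. The share called higher was above that of all genes, though 48 of the 123 listed genes did not pass the filter, and a gene could pass through the treated libraries alone. Of the 33 that rose, 17 had a mean under 2 CPM in DMSO and 8 under 0.5 CPM. PROX1, a factor of lymphatic and neural fate, went from 0.129 ± 0.0472 to 1.83 ± 0.272 CPM (3.80 ± 0.32). FOXF1, of the lung and gut mesenchyme, rose from 3.05, 2.44 and 2.75 CPM to 11.6, 12.4 and 11.3 CPM (2.10 ± 0.11), and SATB1, a chromatin organiser, from 16.9 ± 0.967 to 48.8 ± 1.21 CPM (1.53 ± 0.07). CCND2, which encodes cyclin D2, was at 0.122, 0.0447 and 0.0852 CPM in DMSO and at 0.659, 0.756 and 0.663 CPM under EZH2i+AKTi (3.02 ± 0.42), higher in each treated library but still under 1 CPM. Among the 11 that fell were PITX1, a factor of the hind limb, from 500 ± 33.8 to 221 ± 13 CPM (-1.18 ± 0.06), and WT1 from 7.31 ± 0.288 to 2.22 ± 0.0676 CPM (-1.72 ± 0.12). Of 25 tested HOX genes 14 rose and 2 fell (median 0.30), mostly by small amounts: HOXB9 rose by 1.06 ± 0.12, HOXB13 by 0.81 ± 0.09, HOXC13 by 0.31 ± 0.05, and HOXC9 from 4.97 ± 0.0879 to 9.91 ± 0.74 CPM. HOXC9 and HOXB9 overlap neighbouring HOX genes, and reads may be shared.

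Some genes went from near silence to a clear level. With a mean under 0.5 CPM in DMSO and at least 2 CPM under the combination there were 72 of 17692 tested genes, 64 of them protein-coding. Such genes could pass the filter through the treated libraries alone, so this count describes levels and is not a test. The reverse held for 2, KCNK3, a potassium channel gene, and ACOX2, an enzyme of bile acid synthesis. CLEC2B, which encodes a lectin of immune recognition, had 12 counts over the 3 DMSO libraries and stood at 11.4, 11 and 11.3 CPM in the treated ones (6.91 ± 0.22). With so few DMSO counts it passed the filter through the treated libraries alone and had to differ. GABBR2, a GABA receptor subunit, rose from 0.488, 0.402 and 0.532 CPM to 15.3, 15 and 14.6 CPM (4.97 ± 0.14). MAN1A1, a mannosidase of the Golgi, rose from 0.707, 0.38 and 0.575 CPM to 20.2, 20.2 and 20.8 CPM (5.21 ± 0.15). In all 3 genes the treated libraries lay close to each other and far above DMSO. GNG11, a G protein subunit (5.20 ± 0.23), RARB, a retinoic acid receptor (4.80 ± 0.25), PELI2 (4.63 ± 0.21) and PLAG1, a zinc finger oncogene (4.60 ± 0.23), were also among the 12 largest rises, and LBH, a transcription cofactor gene, had the smallest standard error of them, from 5.22, 4.9 and 4.62 CPM to 135, 137 and 140 CPM (4.81 ± 0.07).

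Single genes of both arms of the BCL2 family changed, where 59.3% of all genes were called, 30.5% higher and 28.8% lower. Of 8 BH3-only genes, which promote apoptosis, 3 rose and 3 fell. HRK stood at 6.32, 5.34 and 5.92 CPM in DMSO and at 37.6, 37.7 and 40.2 CPM under EZH2i+AKTi (2.72 ± 0.08). BBC3, which encodes PUMA, rose from 4.46, 4 and 2.83 CPM to 14.9, 17.8 and 18.8 CPM (2.20 ± 0.15), and BMF from 10.7, 12.1 and 8.35 CPM to 24.9, 28.1 and 26.5 CPM (1.36 ± 0.11). The groups did not overlap in any of the 3. BCL2L11, which encodes BIM, and BID fell (-0.38 ± 0.09 and -0.74 ± 0.07), and PMAIP1, which encodes NOXA, was at 13.1 ± 0.325 and 12.9 ± 0.887 CPM (adjusted p = 0.792). Of 7 tested genes of the other BCL2 family members 3 rose and 0 fell. BCL2L1, whose main product BCL-XL blocks apoptosis, rose from 181, 161 and 162 CPM to 372, 419 and 438 CPM (1.29 ± 0.07). BCL2 rose from 2.57 ± 0.123 to 4.03 ± 0.56 CPM (0.65 ± 0.15). MCL1 was at 145 ± 1.54 and 158 ± 3.56 CPM (0.13 ± 0.05, adjusted p = 0.0447), a call that was lost without any 1 of 5 of the libraries (all but DMSO A), with adjusted p of 0.108 to 0.174.

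Interferon-stimulated genes were split. Of 53 tested members 15 rose and 23 fell (median -0.13), where 30.5% of all genes rose and 28.8% fell. GBP2, a guanylate-binding protein gene, rose from 8.81, 8.27 and 8.26 CPM to 76.1, 82.1 and 83.2 CPM (3.25 ± 0.07, adjusted p = 1.64e-13). OAS3, an antiviral sensor, fell from 42.6, 40.3 and 37.3 CPM to 19.3, 18.9 and 18.9 CPM (-1.08 ± 0.07), and IFIT1 from 16.4 ± 0.325 to 11.6 ± 1.43 CPM (-0.50 ± 0.09). The interferon response element, searched on both strands as a pair of GAAA words with any 2 bases between them, was in 29 of 43 matched promoters of the list (67.4%) and in 2.82% of all. The IFIT1 window is shown because it holds the element at 2 places upstream of a gene that fell, with the reverse complement in capitals, at chr10:89392477-89392559 on the plus strand.
IFIT1: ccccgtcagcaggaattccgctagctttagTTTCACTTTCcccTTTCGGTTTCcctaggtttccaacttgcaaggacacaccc

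MHC class II genes, which present antigen to helper T cells, rose. Of 12 listed MHC class II genes 10 were tested, and of these 8 rose and 0 fell (median 1.71), where 30.5% of all genes rose. A gene could pass the filter through the treated libraries alone and then had to rise. HLA-DPA1 did so, with 6 counts over the 3 DMSO libraries and 74 over the treated ones. With a filter of 1 CPM in 3 libraries, 6 of 8 rose and 0 fell (median 1.74). The treated libraries alone could satisfy that filter too, as they did for HLA-DRA, so it does not remove this limit. CD74, the invariant chain, stood at 4.95, 4.56 and 5.3 CPM in DMSO and at 20.4, 20.2 and 22.6 CPM under EZH2i+AKTi (2.09 ± 0.09). HLA-DRA rose from 0.415, 0.469 and 0.575 CPM to 3.98, 4.11 and 3.73 CPM, higher in each treated library, and HLA-DQB1 from 10.3 ± 0.803 to 25.5 ± 3.01 CPM (1.32 ± 0.10). CIITA, the master regulator of class II, was not called. Of 15 class I genes 7 rose and 2 fell (median 0.40), with HLA-B from 324 ± 13.6 to 699 ± 75.8 CPM (1.11 ± 0.07) and HLA-E from 118 ± 5.87 to 207 ± 17.5 CPM (0.81 ± 0.07), while the peptide transporter gene TAP2 fell (-0.63 ± 0.07). HLA genes resemble each other, so the split of reads among them is uncertain. Of the 4 immune markers tested, CSF1R rose from 2.68 ± 0.0775 to 6.37 ± 0.713 CPM and LYZ from 0.0809 ± 0.049 to 0.625 ± 0.151 CPM, and CD14 fell from 4.13 ± 0.724 to 1.49 ± 0.244 CPM. PTPRC rose from 0.624 ± 0.043 to 1.01 ± 0.146 CPM (adjusted p = 0.0271), a call lost without DMSO A or C or EZH2i+AKTi A or C (adjusted p of 0.0595 to 0.117). The part of other cells in the MHC values was not tested.

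Inflammatory and cytokine genes had no common direction, as was true of all genes, of which 30.5% rose and 28.8% fell. Of 34 NF-kB and inflammatory genes 9 rose and 13 fell (median -0.24). PTGS2, which encodes cyclooxygenase 2, fell from 12, 15.6 and 17.7 CPM to 5.38, 4.99 and 5.32 CPM (-1.53 ± 0.13) and the complement gene C3 from 388 ± 15.8 to 230 ± 2.02 CPM (-0.75 ± 0.05). CSF1, the macrophage growth factor, rose from 25.4 ± 0.835 to 49.8 ± 2.98 CPM (0.97 ± 0.07). The JAK-STAT3 and mammary involution list gave 11 higher and 8 lower of 26 (median 0.07). PIM1, a kinase induced by STAT3, rose from 53.2, 48.2 and 50 CPM to 168, 162 and 182 CPM (1.76 ± 0.06), SOCS3, the feedback inhibitor, from 6.93 ± 0.645 to 21.1 ± 1.71 CPM (1.61 ± 0.10) and IGFBP5, a gene of involution, from 1.48 ± 0.203 to 5.86 ± 0.403 CPM (1.99 ± 0.15). STAT3 itself fell slightly, from 316 ± 6.13 to 281 ± 5.53 CPM (-0.17 ± 0.05, adjusted p = 0.0121), and JAK1 rose slightly (0.21 ± 0.06). The STAT3 call was lost without DMSO B (adjusted p = 0.0551) and the JAK1 call without EZH2i+AKTi A (adjusted p = 0.0871).

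Amino acid and stress genes under ATF4 gave 18 higher and 4 lower of 29 (median 0.50). PHGDH, the first enzyme of serine synthesis, rose from 154, 141 and 134 CPM to 393, 419 and 445 CPM (1.55 ± 0.07), SLC7A11, the cystine transporter, from 58.2 ± 3.7 to 119 ± 4.63 CPM (1.03 ± 0.06) and TRIB3 from 172 ± 5.08 to 296 ± 4.48 CPM (0.78 ± 0.05). Lysosome and autophagy genes gave 23 higher and 4 lower of 43 (median 0.32), led beside GABARAPL1 by CTSF, from 17.5, 17.8 and 15.4 CPM to 71.6, 80.8 and 84.1 CPM (2.22 ± 0.08). Ribosome biogenesis genes fell, with 29 of 38 lower and 0 higher (median -0.44), among them BOP1 and the nucleolar factor gene NOLC1 (-0.94 and -0.79). Chaperones of the endoplasmic reticulum gave 13 lower and 3 higher of 21 (median -0.30). HERPUD1, of the degradation pathway, was among those that rose (0.77 ± 0.05), and PDIA4, a disulfide isomerase, fell from 461 ± 14.3 to 305 ± 0.62 CPM (-0.60 ± 0.05).

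Lipid genes moved modestly. Of 26 genes of cholesterol synthesis and uptake 6 rose and 6 fell (median -0.03), with HMGCS1 from 288 ± 16.8 to 213 ± 9.29 CPM (-0.44 ± 0.06). Of 22 genes of fatty acid synthesis 11 fell and 5 rose (median -0.28), with the elongase gene ELOVL6 from 127 ± 8.97 to 57.9 ± 1.83 CPM (-1.13 ± 0.06) and ACSS2, which makes acetyl-CoA from acetate, from 140 ± 8.33 to 358 ± 11.3 CPM (1.35 ± 0.06). The WNT and BMP pathway list gave 30 higher and 10 lower of 52 (median 0.43). WNT5B, a ligand, rose from 9.25, 7.02 and 7.9 CPM to 35.6, 40.6 and 40.1 CPM (2.27 ± 0.10), ID4, a target of BMP, from 3.13 ± 0.383 to 16 ± 0.165 CPM (2.35 ± 0.11) and FST, which encodes the activin antagonist follistatin, from 9.49 ± 1.21 to 31.4 ± 1.5 CPM (1.72 ± 0.09). Of 23 p53 targets 8 rose and 6 fell (median 0.13), close to the shares of all genes (30.5% and 28.8%). GDF15 rose furthest of them, from 42.5, 37.6 and 38 CPM to 212, 225 and 240 CPM (2.52 ± 0.07). Of 15 genes of the mitochondrial genome 2 rose and 0 fell (median 0.28), and MT-CYB was at 2623 ± 414 and 3293 ± 378 CPM (adjusted p = 0.0648). Without 1 library the number that rose was 1 (without DMSO A or C) to 5 (without DMSO B), and the median fell to 0.17 without DMSO A and to 0.07 without EZH2i+AKTi C. MT-CYB was called without DMSO B (adjusted p = 0.0288) or EZH2i+AKTi B (0.0267), and also by DESeq2 (0.00633), with a replicate block (0.0168) and under both other filters.

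Abundant transcripts also changed. Among the largest rises in CPM were FTH1, the ferritin heavy chain, from 1506, 1540 and 1519 CPM to 3566, 3165 and 3330 CPM (1.14 ± 0.06), MT2A, a metallothionein, from 1028, 871 and 996 CPM to 2357, 2517 and 3264 CPM (1.49 ± 0.13), and TIMP3, an inhibitor of matrix proteases, from 583 ± 9.02 to 1607 ± 94.2 CPM (1.46 ± 0.06). MT2A and FTH1 have close relatives or processed copies, with which reads may be shared. DIO2, a deiodinase of thyroid hormone, fell from 123, 134 and 138 CPM to 20.8, 20.5 and 18.6 CPM (-2.72 ± 0.07), and TM4SF18, a tetraspanin-like gene, from 102 ± 7.97 to 18.9 ± 0.77 CPM (-2.43 ± 0.07).

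The second question was where the response of HCC1937 differed from that of HCC38 and HCC1395 under the same inhibitors. The difference in log2 change was tested in a joint fit over all 24 libraries, 20697 genes. It was called for 6628 genes against HCC38 (32%), 14.3% higher and 17.7% lower in HCC1937, and for 4825 genes against HCC1395 (23.3%), 11.3% higher and 12% lower. The 2 comparisons share the HCC1937 libraries. In the same direction against both lines, 917 genes were higher in HCC1937 (4.43%) and 1077 lower (5.2%).

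The fall of replication genes was between those of the other lines. Of 56 genes, 47 had a lower log2 change in HCC1937 than in HCC38 and 0 a higher one, and 35 had a higher change than in HCC1395 and 2 a lower one. The medians were -0.85 in HCC1937, -0.14 in HCC38 and -1.33 in HCC1395. CDC6 changed by -1.50 ± 0.07 in HCC1937, -0.13 ± 0.06 in HCC38 and -2.20 ± 0.07 in HCC1395, and both differences passed (adjusted p = 1.95e-12 and 1.05e-06). EZH2 differed from HCC38 (difference -0.83 ± 0.10, adjusted p = 2.87e-07), where it was at 47.4 and 46.9 CPM. Against HCC1395 the EZH2 difference was 0.01 ± 0.10 (adjusted p = 0.978).

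Interferon-stimulated genes set HCC1937 apart from HCC1395. Of 54 genes 38 had a lower change in HCC1937 and 1 a higher one, with medians of -0.13 and 1.06. IFIT1 changed by -0.50 ± 0.11 in HCC1937 and by 2.47 ± 0.11 in HCC1395 (adjusted p of the difference 5.37e-15), and by -1.01 ± 0.10 in HCC38. Junction genes gave 26 of 38 lower in HCC1937 than in HCC1395, where the median was 0.89. CDH1 and EPCAM were at most 0.588 and 2.35 CPM in HCC1395 in DMSO, so the lines started from different levels. Glycolysis genes fell further in HCC1937, with 18 of 24 lower than in HCC38 and 13 lower than in HCC1395. LDHA changed by -1.85 ± 0.06 in HCC1937, -0.70 ± 0.06 in HCC38 and -1.08 ± 0.06 in HCC1395 (adjusted p = 3.98e-11 and 6.49e-08). ATF4 genes gave 19 of 29 higher in HCC1937 against each of the other lines, with medians of -0.07 in HCC38 and -0.17 in HCC1395. Histone genes gave 20 of 40 higher than in HCC38 and 11 higher than in HCC1395, with 0 lower in either.

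**Figure D5:**
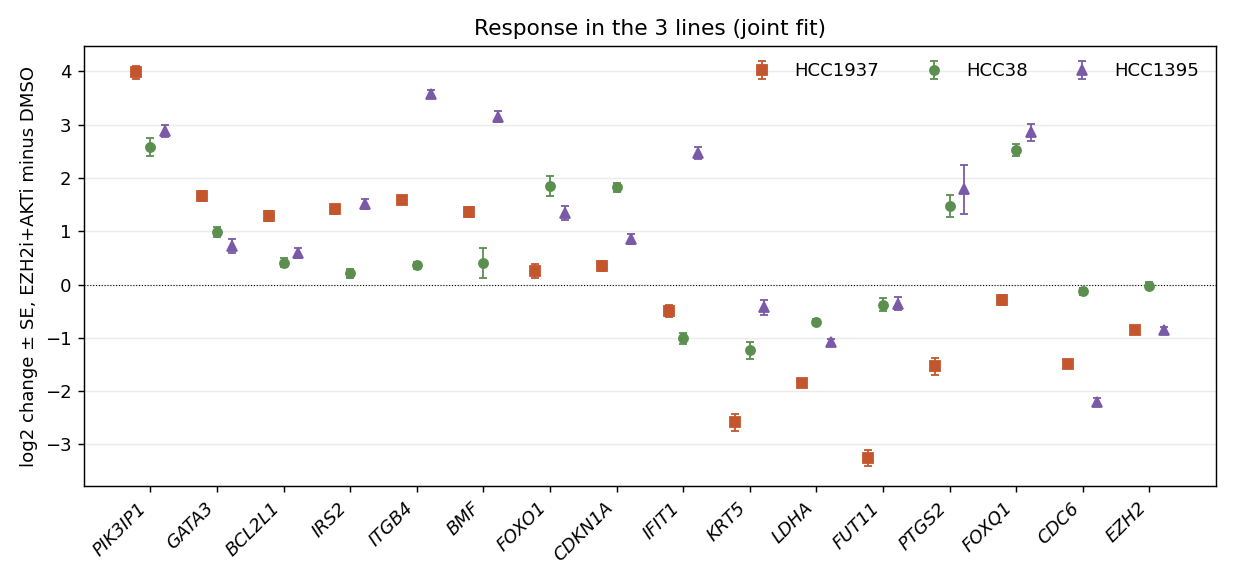
Log2 change (EZH2i+AKTi minus DMSO) with its standard error from the joint fit for 16 genes in HCC1937 (orange squares), HCC38 (green circles) and HCC1395 (purple triangles). GATA3, BCL2L1 and PIK3IP1 rose furthest in HCC1937, KRT5, LDHA and FUT11 fell furthest there, and FOXQ1 and PTGS2 fell in HCC1937 and rose in the other lines.

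Single genes showed differences in size and in direction. GATA3 rose by 1.66 ± 0.09 in HCC1937, 0.98 ± 0.09 in HCC38 and 0.73 ± 0.13 in HCC1395, and both differences passed (adjusted p = 6.89e-05 and 3.76e-05). BCL2L1 rose by 1.29 ± 0.09, against 0.41 ± 0.09 in HCC38 and 0.59 ± 0.09 in HCC1395 (adjusted p = 4.73e-06 and 0.000157). PIK3IP1 rose by 3.98 ± 0.12, against 2.58 ± 0.17 and 2.88 ± 0.11 (adjusted p = 3e-05 and 1.95e-06). KRT5 changed by -2.58 ± 0.16 in HCC1937, beyond HCC38 (-1.23 ± 0.16) and HCC1395 (-0.43 ± 0.14). FUT11 changed by -3.26 ± 0.15 in HCC1937 against -0.38 ± 0.12 and -0.36 ± 0.12. BMF rose less than in HCC1395 (1.36 ± 0.10 against 3.15 ± 0.11, adjusted p = 8.43e-11), as did ITGB4 (1.58 ± 0.07 against 3.58 ± 0.07, adjusted p = 1.42e-15), though ITGB4 in HCC1937 was already at 542 CPM in DMSO against 31.4 CPM in HCC1395. FOXQ1, a forkhead factor, fell in HCC1937 (-0.29 ± 0.09) from 99.7 to 81.3 CPM and rose in HCC38 (2.52 ± 0.11) from 2.97 to 17.1 CPM and in HCC1395 (2.86 ± 0.16) from 0.665 to 4.88 CPM. CDKN1A changed by 0.35 ± 0.09 in HCC1937, 1.82 ± 0.09 in HCC38 and 0.85 ± 0.09 in HCC1395, and FOXO1 by 0.25 ± 0.13, 1.85 ± 0.19 and 1.34 ± 0.13. Both genes had a lower log2 change in HCC1937 than in each of the other lines (adjusted p of the differences 2.13e-10 and 0.00341 for CDKN1A, and 3.57e-06 and 4.13e-05 for FOXO1). The starting levels differed: in DMSO, CDKN1A was at 117 CPM in HCC1937, 28.4 in HCC38 and 19.8 in HCC1395, and FOXO1 at 13.4, 1.27 and 8.9 CPM.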

How the data were processed

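The deposited files hold raw counts per gene for each library, made by the authors. Per the submitters' processing notes, fastp, HISAT2 2.0.5 and DESeq2 were used with build hg38. No source used here gives the read counter, the annotation release or the strand setting, so reads of overlapping or antisense genes may be shared, as for BCL2L1 (ABALON), CDKN2A and CDKN2B (CDKN2B-AS1), PGK1 (PGAM4), ITGB4 (GALK1) and TIMP3 (SYN3). The authors' deposited normalised tables were not used, and 12 of their columns carry a line name that is in no label. Low genes were removed with filterByExpr at a minimum count of 10. After TMM scaling, the quasi-likelihood test of edgeR 4.0.16, two-sided, compared the groups (limma 3.58.1, R 4.3.3) with Benjamini-Hochberg adjustment at 0.05 over all genes tested, leaving 4 residual degrees of freedom in HCC1937 and 16 in the joint fit. DESeq2 1.42.0 served as an alternative. Simulated counts with known changes were used to test the steps. The libraries of a group differed by more than sampling noise (chi-square per degree of freedom 3.53 to 21.97), so none was counted as a copy. Deviations from the group mean were correlated at -0.208 to -0.076 between same-letter libraries and at -0.014 to 0.157 between other pairs. With 3 libraries per group these values cannot decide whether letters pair libraries, and the main test used no pairing. Depth was 35506411 to 47370609 counts. Symbols were placed with GENCODE release 29, and 27 entries with symbols turned into dates (0.144 to 0.161% of counts) stayed in the tests unnamed. Promoters are from RefSeq and were matched for 11885 genes, 11485 by symbol and 400 by an older symbol.

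The groups of genes and the tests were chosen with earlier results of these data known. Named genes were the 12 largest rises and 12 largest falls in log2 among protein-coding genes that were called, averaged 2 CPM or more and had no overlap between groups, the 8 largest in CPM each way, a fixed panel, from each list the 4 genes of lowest p, and the 6 largest differences from both other lines each way. The text names a part of these. Members of lists given with a log2 change alone, CA9, PROX1 and ACOX2 were added after their values were seen.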

Additional observations from a re-analysis of the deposited data

Results flagged for a closer look

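For 22 named genes the log2 change in HCC1937 differed from that in HCC38 and from that in HCC1395, in the same direction in both tests of the difference (edgeR, adjusted p under 0.05). The value given is the smaller of the 2 differences. Of the 22, 12 (FREM2, TMEM108, BCL11A, EDIL3, NUDT11, MARK1, PTGS2, FUT11, PLCXD3, FOXQ1, HOXA13 and CDH19) were named because their differences from both lines were the largest, so for them this restates the choice. Higher in HCC1937 were GATA3 (0.68), PIK3IP1 (1.10), BCL2L1 (0.70) and the cyclin gene CCND1 (0.24). Lower were KRT5 (-1.35), LDHA (-0.77), FUT11 (-2.88), PTGS2 (-3.00), FOXO1 (-1.09), FOXO3 (-0.35), KRT18 (-0.33), CDKN1A (-0.50), FOXQ1 (-2.82), PLCXD3, a phospholipase-like gene (-4.66), HOXA13 (-2.65) and the cadherin gene CDH19 (-2.58). Some of these also rest on levels near 0. From DMSO to EZH2i+AKTi, HOXA13 went from 0.0295 to 0.126 CPM in HCC38. In HCC1395, PLCXD3 went from 0.00948 to 0.434 CPM and PTGS2 from 0.101 to 0.36 CPM. CDH19 in HCC1937 had 46 counts over the DMSO libraries and 14 over the treated ones. Its fall there was not called without DMSO A (adjusted p = 0.0746) or EZH2i+AKTi C (0.0973). The CCND1 difference from HCC38 was lost without either DMSO A or B or EZH2i+AKTi A or B of HCC1937 and without the low-count filter (adjusted p of 0.0601 to 0.174). Those of FOXO3 (adjusted p of 0.0633 to 0.0671) and KRT18 (0.0591 to 0.0836) were lost when some single libraries or the single-inhibitor libraries of HCC1395 were left out.

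Among the largest positive differences were genes at or near 0 in HCC1937 in DMSO, whose fitted values depend on the prior count. These were FREM2 (6.60), TMEM108 (6.53), BCL11A (6.41), EDIL3 (6.15), NUDT11 (5.47) and the kinase gene MARK1 (4.64). EDIL3, an integrin ligand gene, had 0 counts over the 3 DMSO libraries and 156 under EZH2i+AKTi, at least 56.9-fold higher when DMSO is set to 3 counts over the group. TMEM108 had 0 and 87 counts (at least 31.7-fold) and NUDT11 0 and 70 (at least 25.5-fold). BCL11A, a transcription factor gene, had 1 and 258 counts, FREM2 had 4 and 278, and MARK1 had 2 and 117. In HCC1395 EDIL3 was at 357 CPM in DMSO and TMEM108 at 29.6 CPM, so these genes started from very different levels in the lines.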

How the results depend on the processing

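No gene called in HCC1937 was called in the opposite direction under RLE scaling, a stricter filter (1 CPM in 3 libraries), no filter on low counts, DESeq2, the replicate block, the fit of all 24 libraries or without any 1 library. The median of all genes shifted by at most 0.037. The stricter filter gave 1351 genes higher and 367 lower at 2-fold or more, since fewer genes of low level were tested. Without 1 library, genes higher ranged from 4797 to 5529, lower from 4572 to 5331, higher at 2-fold from 1996 to 2266 and lower at 2-fold from 549 to 675. Falls outnumbered rises under RLE scaling, DESeq2 and without EZH2i+AKTi A or C. Without 1 HCC1937 library, differences numbered 5625 to 6667 against HCC38 and 4242 to 4594 against HCC1395. Under DESeq2 they numbered 7036 and 5166. A replicate block gave 4815 genes higher, 4497 lower, 1994 and 544 at 2-fold, and 6510 and 4678 differences. Whether the letters pair the libraries was not settled. Signs turned for genes that were not called: AKT2 (0.01) and PMAIP1 (0.01) under the stricter filter, and, without 1 library, AKT2 (range -0.08 to 0.05, turned at 0.01 and 0.05), the neural marker TUBB3 (-0.35 to 0.04, turned at 0.03 and 0.04) and ELF3 (-0.01 to 0.10, turned at -0.01 and -0.00). The cause was not tested. The balance of higher and lower calls turned under some settings for the Polycomb subunit, luminal, mesenchymal, cholesterol and p53 lists.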

Other observations

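Genes of the ZNF zinc finger family, many of which encode repressors with a KRAB domain and lie in clusters, were looked at after their values were seen. Of 431 tested genes with a ZNF symbol 123 fell and 73 rose in HCC1937 (edgeR, adjusted p under 0.05), with a median log2 change of -0.10, where 28.8% of all genes fell and 30.5% rose. The share of the family that fell was thus close to that of all genes, and the share that rose was lower than that of all genes. Along the chromosomes there were 318 runs of 4 or more neighbouring tested protein-coding genes that were all called the same way. The run with the most genes lay on chromosome 19 (GRCh38, 19785839 to 21379302) and held 13 ZNF genes, from ZNF506 to ZNF738, all lower, with a median of -0.78. Of runs with 3 or more ZNF genes, 6 were lower and 2 higher. Among runs of rising genes, one on chromosome 7 (93885396 to 96110322) held 11 genes from TFPI2 to DYNC1I1, with a median of 0.68, among them GNG11, the imprinted genes PEG10 and SGCE, and PDK4, a target of FOXO. How many such runs arise when 59.3% of genes are called was not tested.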
